A study of Mus musculus with 30 samples.

Results

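Interferon-induced GTPases were followed in mouse back skin through an episode of chemically induced inflammation in wild type (WT) mice and in mice deficient in D6, an atypical receptor that removes inflammatory CC chemokines. The family was taken by gene symbol as 10 genes, the guanylate-binding proteins Gbp2, Gbp3 and Gbp6, the immunity-related GTPases Igtp, Irgm1, Irgm2, Iigp1 and Ifi47, and the Mx proteins Mx1 and Mx2. Every probe set that carries such a symbol was used, and these were 13 of the 45037 probe sets on the array (10 of 21677 distinct gene symbol entries). Gbp2, Gbp6 and Iigp1 have more than 1 probe set each, and for them the probe set with the highest mean over all arrays is quoted unless another is named. The levels of different probe sets are not compared with each other, since a hybridization signal depends on the probe as well as on the RNA.

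Female mice of the 129–C57BL/6 strain, 8 to 12 weeks old and either D6 Deficient or Wild Type, received 3 applications of 50 μM TPA, a phorbol ester that inflames skin, at intervals of 24 h on shaved back skin. Whole skin was taken 1, 2, 4 or 6 days after the last application. The day 0 controls of each genotype received the solvent acetone according to the methods, whereas the sample titles have the word untreated. With 3 biological replicates for every genotype and day there are 10 groups and 30 arrays. Values are log2 intensities, so a difference of 1 is a doubling, and the spread of each group is given as the SD with n = 3. In whole skin, a rise in the number of expressing cells and a rise in RNA per cell cannot be told apart.

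Guanylate-binding proteins are large GTPases of the dynamin superfamily that gather on membranes around intracellular pathogens and on damaged vacuoles. The immunity-related GTPases work in a hierarchy in which the regulators Irgm1, Irgm2 and Igtp (also called Irgm3) sit on the membranes of the host cell and keep the effectors, among them Iigp1 (Irga6) and Ifi47 (Irgd), from acting there, so that the effectors assemble on the vacuoles of pathogens. Mx1 and Mx2 are dynamin-like antiviral proteins. Mx genes are known as targets of type I and type III interferons, which act through the factor ISGF3 on interferon-stimulated response elements, whereas guanylate-binding proteins and immunity-related GTPases are also strongly induced by interferon-γ through gamma-activated sequences. Many laboratory strains carry Mx1 alleles that make no functional protein.

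The annotation places most of these genes in small clusters. In the GRCm38.p6 assembly, Gbp3 lies at chr3:142560016-142573213 and Gbp2 at chr3:142620663-142638008. The probe sets that the array names Gbp6 carry the Entrez identifier 229900, which RefSeq now names Gbp7 and places beside them at chr3:142530336-142550151, while the gene that RefSeq now names Gbp6 appears on the array as Mpa2l. The name Gbp6 is kept below as the array gives it. Irgm1 (chr11:48865245-48871420), Ifi47 (chr11:49076587-49096987), Igtp (chr11:58199556-58207592) and Irgm2 (chr11:58214977-58222783) share chromosome 11, and Mx1 (chr16:97447035-97462906) and Mx2 (chr16:97536081-97560901) lie next to each other on chromosome 16.

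RefSeq promoter windows were at hand for 7 of the 10 genes. They are shown because the members differ in the 2 sequence elements named above, and because they lie just upstream of the annotated start of each gene (GRCm38.p6, written 5′ to 3′ on the strand of the gene). Capitals mark an ISRE-like match, GAAANNGAAA or its reverse complement TTTCNNTTTC, or a GAS-like match, TTCNNNGAA, which is its own reverse complement. Matches of the 2 kinds did not overlap each other.
Gbp2, chr3:142620583-142620662, + strand: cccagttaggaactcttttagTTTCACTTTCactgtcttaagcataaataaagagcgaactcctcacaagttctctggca
Gbp3, chr3:142559936-142560015, + strand: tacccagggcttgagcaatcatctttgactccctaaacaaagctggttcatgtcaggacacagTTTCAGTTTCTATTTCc
Gbp6 (RefSeq Gbp7), chr3:142530225-142530335, + strand: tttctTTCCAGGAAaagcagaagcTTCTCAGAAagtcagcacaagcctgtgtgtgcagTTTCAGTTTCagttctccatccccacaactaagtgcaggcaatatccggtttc
Igtp, chr11:58199476-58199555, + strand: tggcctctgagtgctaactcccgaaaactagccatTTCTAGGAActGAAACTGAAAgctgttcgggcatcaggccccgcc
Irgm2, chr11:58214897-58214976, + strand: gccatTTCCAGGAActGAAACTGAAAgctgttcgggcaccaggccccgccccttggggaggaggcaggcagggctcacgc
Irgm1, chr11:48871421-48871500, − strand: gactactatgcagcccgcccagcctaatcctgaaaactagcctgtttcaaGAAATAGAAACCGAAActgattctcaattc
Ifi47, chr11:49076507-49076586, + strand: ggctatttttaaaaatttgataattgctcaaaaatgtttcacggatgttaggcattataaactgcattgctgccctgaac

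Searched on both strands over the first 250 bases of each window of the promoter table, which for Gbp3 reach 28 bases into the annotated gene, the ISRE-like letters were found in 6 of these 7 promoters and in 2.98% of all 32851 promoter windows in the table. The GAS-like letters were found in 3 of the 7 (Gbp6, Igtp and Irgm2) and in 7.02% of all windows. Igtp and Irgm2, which lie side by side, hold the same arrangement of a GAS-like match followed by an ISRE-like match. In Gbp3 and Irgm1 the capitals are 2 overlapping ISRE-like matches. The Ifi47 window held neither set of letters. These are matches of letters and not measured binding.

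The D6 gene itself (Ccbp2 on the array) served as a check of the labels. On 1 of its 3 probe sets the highest of the 15 D6-deficient arrays (3.86) was below the lowest of the 15 WT arrays (4.15), and on the other 2 the genotypes overlapped. Keratinocyte markers were present on every array, with a summed linear intensity of at least 12532. All 13 member probe sets passed the filter on dim signals, which removed the 20% of probe sets with the lowest mean over all arrays, and 36029 probe sets were tested with limma. Comparisons of 3 arrays against 3 cannot go below a p of 0.1 in an exact permutation test, so the tests quoted are limma's, with Benjamini-Hochberg adjustment over all 36029 probe sets.

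The members followed different courses over time. Mx1, Mx2, Gbp3 and Ifi47 stood highest in D6-deficient skin at day 2, and Irgm1 was at its highest there too but at about the same level at day 4. Gbp2, Gbp6, Igtp, Irgm2 and Iigp1 had their highest mean in D6-deficient skin at day 4, although that of Gbp6 was about the same at day 2 (10.62) and day 4 (10.67). Between these days in D6-deficient skin, only Mx1 and Mx2 fell and only probe sets of Gbp2 and Iigp1 rose past the threshold. For the other genes the order of day 2 and day 4 is that of the means alone. In WT skin 7 of the 10 genes had their highest mean at day 4, and Gbp3, Mx1 and Mx2 were not raised on any day after TPA.

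**Figure D1:**
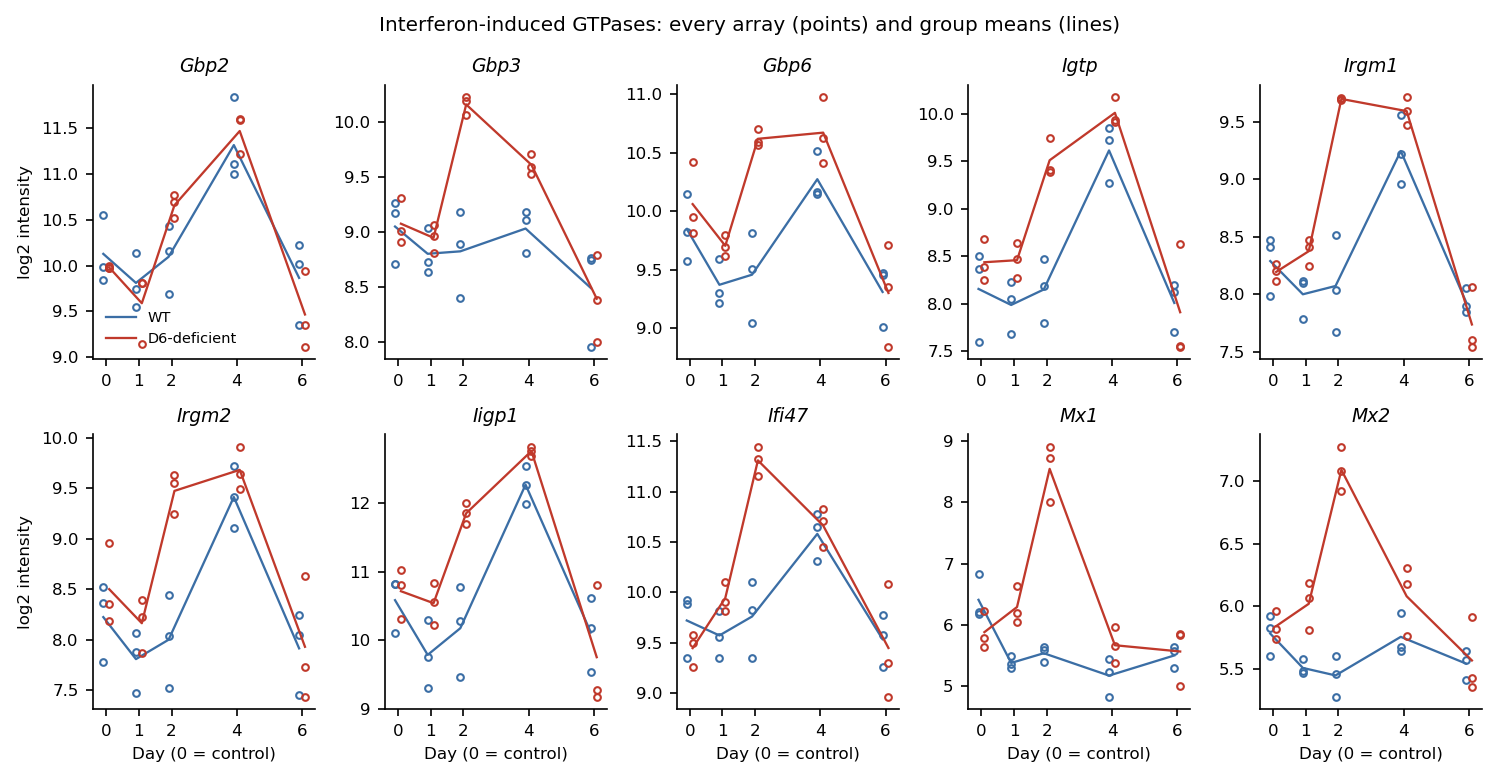
Log2 intensity (vertical axes, each with its own range) against the day after the last TPA application (horizontal axes, day 0 being controls) for the quoted probe set of each gene. Points are single arrays, 3 per group, and lines join group means, WT in blue and D6-deficient in red. The D6-deficient means of Mx1 and Mx2 form a peak at day 2 of 8.54 and 7.09, while Iigp1, Igtp and Gbp2 reach their highest means at day 4 in both genotypes.

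Mx1 had the largest range among the members. In D6-deficient skin the day 0 arrays read 6.22, 5.64 and 5.78, the day 1 arrays 6.19, 6.06 and 6.63, and the day 2 arrays 8.90, 8.00 and 8.72. At day 4 the D6-deficient arrays were back at 5.97, 5.65 and 5.39. All D6-deficient arrays at day 2 therefore lay above every other array of the series for this gene. In WT skin Mx1 was at 6.19, 6.83 and 6.21 at day 0 and fell after TPA, to 5.39, 5.64 and 5.59 at day 2 and 5.45, 5.24 and 4.83 at day 4. The genotypes differed by 3.00 at day 2 (SE 0.24, 8.01-fold, adjusted p = 1.5e-08).

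Mx2, the paralogue of Mx1, also stood highest in D6-deficient skin at day 2. In WT skin its difference between day 4 and day 0 was −0.03 (adjusted p = 0.912), where Mx1 was lower. At day 2 it was at 7.28, 6.92 and 7.08 in D6-deficient skin and at 5.28, 5.46 and 5.60 in WT skin, and the 2 groups did not overlap. The difference was 1.64 (SE 0.15, 3.12-fold, adjusted p = 1.09e-07). From day 2 to day 4 in D6-deficient skin Mx1 fell by 2.87 (SE 0.24, adjusted p = 1.74e-08) and Mx2 fell by 1.01 (SE 0.15, adjusted p = 4.01e-05). Neither gene was higher at day 4 than at day 0 in D6-deficient skin, with differences of −0.21 (adjusted p = 0.516) for Mx1 and 0.24 (adjusted p = 0.219) for Mx2.

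The effectors Iigp1 and Ifi47 had differences of opposite sign between day 2 and day 4 in D6-deficient skin. Ifi47 was at 11.33, 11.16 and 11.44 in D6-deficient skin at day 2 and at 10.45, 10.71 and 10.83 at day 4, and the fall of 0.65 did not pass the test (adjusted p = 0.052). Iigp1 stood at 11.70, 11.85 and 12.00 at day 2 and at 12.82, 12.69 and 12.76 at day 4. Its rise of 0.91 on the quoted probe set missed the threshold (adjusted p = 0.0941), while the other Iigp1 probe set rose by 1.08 (SE 0.32, adjusted p = 0.0216). In WT skin both effectors were at their highest at day 4, Iigp1 at 12.54, 11.99 and 12.26 and Ifi47 at 10.65, 10.31 and 10.78. WT Iigp1 at day 2 was 10.28, 9.47 and 10.78, below every D6-deficient array of that day.

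The 3 regulators Irgm1, Irgm2 and Igtp were all higher in D6-deficient skin at day 2. Irgm1 was at 9.71, 9.69 and 9.69 in D6-deficient skin at day 2 against 8.04, 7.67 and 8.51 in WT skin, a difference of 1.62 (SE 0.18, 3.08-fold, adjusted p = 1.47e-06). The D6-deficient arrays at day 4 were at 9.71, 9.47 and 9.59 and overlapped with those at day 2. Irgm2 was at 9.55, 9.24 and 9.63 in D6-deficient and at 8.04, 7.53 and 8.44 in WT skin at day 2, and the groups did not overlap. Igtp was at 9.41, 9.39 and 9.74 against 8.19, 7.80 and 8.47. At day 4 the WT arrays had risen to 9.85, 9.27 and 9.72 for Igtp, 9.72, 9.10 and 9.41 for Irgm2, and 9.56, 8.96 and 9.22 for Irgm1.

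Of the guanylate-binding proteins, Gbp3 was at 10.07, 10.23 and 10.19 in D6-deficient skin at day 2 and at 8.90, 8.40 and 9.18 in WT skin, and its WT level at day 4 (9.18, 9.11 and 8.81) overlapped with that of day 0 (8.71, 9.18 and 9.27). Gbp2 at day 2 was at 10.69, 10.51 and 10.77 in D6-deficient and at 10.16, 9.69 and 10.43 in WT skin. The difference of 0.56 did not pass on either Gbp2 probe set (adjusted p = 0.294 and 0.334). By day 4 Gbp2 had reached 11.22, 11.59 and 11.59 in D6-deficient and 11.84, 11.00 and 11.10 in WT skin. Gbp6 was at 10.56, 10.59 and 10.71 in D6-deficient skin at day 2 and at 9.51, 9.05 and 9.82 in WT skin. Its quoted probe set passed at 1.16 (SE 0.21, adjusted p = 0.00135) and its other probe set did not, at 1.00 (SE 0.35, adjusted p = 0.116).

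Compared directly on the same day, the genotypes differed in this family at day 2. There 10 of the 13 probe sets, of 9 genes, were higher in D6-deficient skin, against 2.46% of all probe sets tested, and all 13 differences were positive. Of the 10, 4 were more than 3-fold higher (Mx1, Mx2, Irgm1 and Iigp1), against 0.411% of all probe sets. The median difference was 1.47, beside −0.02 over all tested probe sets. The remaining differences that passed were 1.67 for Iigp1 (SE 0.36, adjusted p = 0.00591), 1.55 for Ifi47 (SE 0.23, adjusted p = 0.000101), 1.47 for Irgm2 (SE 0.29, adjusted p = 0.00226), 1.36 for Igtp (SE 0.26, adjusted p = 0.00166) and 1.34 for Gbp3 (SE 0.21, adjusted p = 0.00033). Mx1, Ifi47 and Iigp1 are among the genes that the study singled out on these same arrays for their difference at day 2, so their values here are not independent evidence of it.

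Leaving out 1 array at a time left 9 or 10 probe sets higher at day 2. Without WT replicate 2, whose levels were the lowest of its group for most members, the quoted Iigp1 probe set no longer passed, at 1.32 (adjusted p = 0.055). By the signal of their hybridization controls the arrays form a set of 17 and a set of 13, which no label calls a batch. Within the set of 13 the day 2 difference of the quoted probe sets ran from 0.44 (Gbp2) to 3.06 (Mx1), and within the set of 17 from 0.71 (Gbp2) to 3.11 (Mx1). The first compares 2 D6-deficient arrays with 1 WT array and the second 1 with 2, so neither has an error of its own. The unmoderated test named in the study's methods, run on the same values, called 0 of the 13 higher on day 2 after Benjamini-Hochberg adjustment and 4 at an unadjusted p with the 3-fold threshold. After that adjustment Ifit1 (3.74, adjusted p = 0.0951) and Irf7 (3.24, adjusted p = 0.0983), described below, did not pass this test either. The share of all probe sets that it called is not given here.

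**Figure D2:**
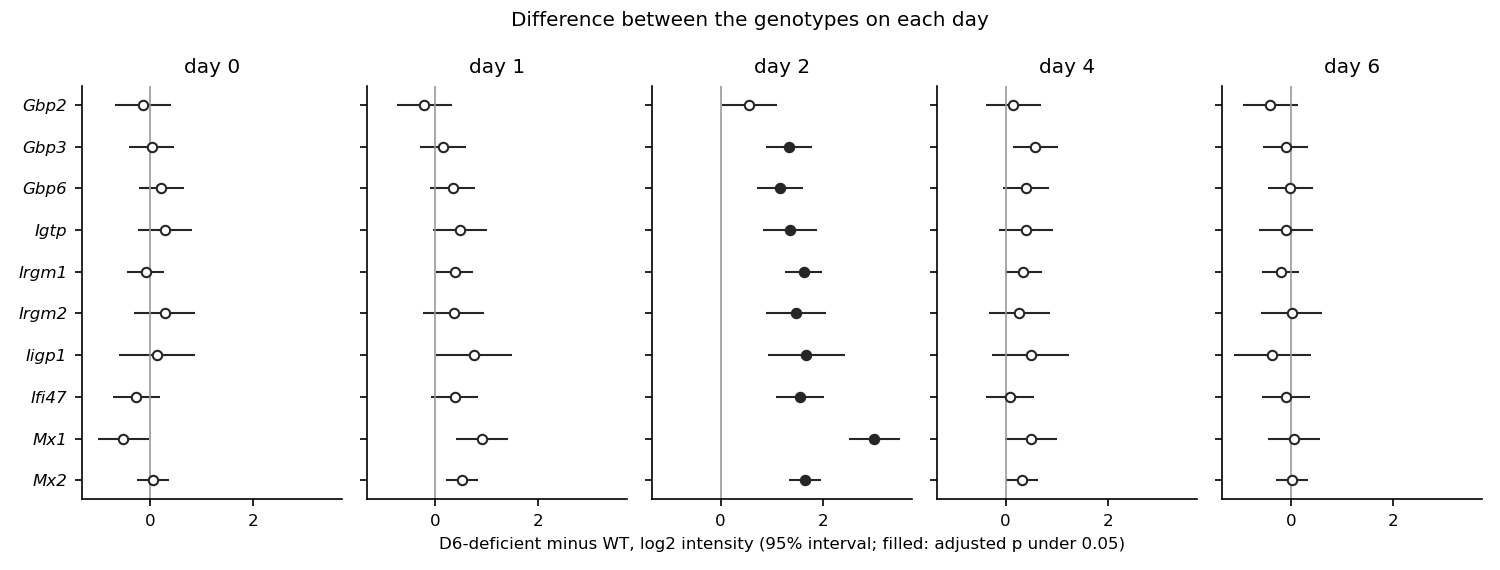
Difference between D6-deficient and WT skin in log2 intensity (horizontal axes) for the quoted probe set of each gene on each day, with 95% confidence intervals from limma. Filled points have an adjusted p under 0.05. Filled points are present at day 2 only, where the differences run from 0.56 for Gbp2 (open) to 3.00 for Mx1.

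On the other days no member passed. The shares of all probe sets that follow are at an adjusted p under 0.05. They are no background for the unadjusted counts, here or in later paragraphs. At day 0 the count was 0 of 13, against 0.713% of all probe sets higher in D6-deficient skin, and 1 probe set had an unadjusted p under 0.05 (Mx1, lower in D6-deficient skin by limma, at −0.53). At day 1 it was 0 of 13, against 0.0194%, with 5 probe sets higher at an unadjusted p under 0.05. Mx1 was nominally higher by 0.91 at day 1 (SE 0.24, adjusted p = 0.268) and Mx2 by 0.51 (SE 0.15, adjusted p = 0.315). At day 4 it was 0 of 13, against 0.289%, although all 13 differences were positive with a median of 0.36 and 2 had an unadjusted p under 0.05. At day 6 it was 0 of 13, against 0.025%, and limma gave none at an unadjusted p under 0.05. At day 4 the intervals still allowed differences of up to 1.24 for Iigp1 and 0.55 for Ifi47.

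When the change from day 0 was compared between the genotypes, 5 of 13 probe sets had a larger rise in D6-deficient skin at day 2, against 2.78% of all probe sets, and all 13 differences were positive. They were those of Mx1 (3.53, SE 0.34, adjusted p = 1.22e-06), Ifi47 (1.82, SE 0.32, adjusted p = 0.00112), Irgm1 (1.72, SE 0.25, adjusted p = 0.000182), Mx2 (1.58, SE 0.21, adjusted p = 7.45e-05) and Gbp3 (1.31, SE 0.30, adjusted p = 0.01). Of these, 3 exceeded 3-fold, against 0.555% of all probe sets. Iigp1, Irgm2, Igtp and Gbp6 had differences of 1.54, 1.20, 1.08 and 0.95 that did not pass, with adjusted p from 0.0695 to 0.0907. Without WT day 2 replicate 3 the count was 8. At day 1, day 4 and day 6 the counts were 0 of 13, against 0.00278%, 0.192% and 0.0139% of all probe sets, and 2, 1 and 0 probe sets had a larger rise at an unadjusted p under 0.05 in limma.

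Within each genotype the timing was as follows. In WT skin 8 of 13 probe sets, of 6 genes, were higher at day 4 than at day 0, against 17.3% of all probe sets tested. The rises were 1.68 for Iigp1 (SE 0.36, adjusted p = 0.00067), 1.46 for Igtp (SE 0.26, adjusted p = 7.81e-05), 1.19 for Irgm2 and for Gbp2, 0.96 for Irgm1 and 0.86 for Ifi47. Mx1 alone was lower at day 4 than at day 0, 1 of 13 against 21.8% of all probe sets, with a difference of −1.23 (SE 0.24, adjusted p = 0.000279). It was the only member lower at day 1 (−1.03, against 12.7% of all probe sets), day 2 (−0.87, against 15%) and day 6 (−0.91, against 11.9%) as well. WT day 0 replicate 2 had the highest Mx1 level of its group (6.83), and without it Mx1 no longer passed at day 2 or day 6. No member was higher than at day 0 in WT skin at day 1, 2 or 6, and limma gave none at an unadjusted p under 0.05.

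In D6-deficient skin 0 of 13 probe sets were higher at day 1 than at day 0, against 18.2% of all probe sets, and 1 had an unadjusted p under 0.05. At day 2 the count was 12 of 13, against 17.5%, with rises of 2.66 for Mx1 (SE 0.24, adjusted p = 1.37e-08), 1.86 for Ifi47 (SE 0.23, adjusted p = 7.17e-07), 2.83-fold for Irgm1 on the linear scale, and on the log2 scale 1.25 for Mx2, 1.13 for Iigp1, 1.09 for Gbp3 and 1.07 for Igtp. At day 4 it was 10 of 13, against 18.8%, and the largest rises were those of Iigp1 (2.04, SE 0.36, adjusted p = 7.07e-05), Igtp (1.57), Gbp2 (1.49) and Irgm1 (1.40). The 3 probe sets that did not pass at day 4 were those of Mx1 and Mx2 and the dimmer of the pair for Gbp6. At day 6 the probe sets of Gbp3 (−0.68), Gbp6 (−0.76) and Iigp1 (−0.96) were below day 0, 3 of 13 against 15.7% of all probe sets.

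The counts in D6-deficient skin depended in part on single arrays. Without D6-deficient day 0 replicate 1 the day 2 count was 7, and the quoted probe sets of Gbp2, Gbp6, Irgm2 and Iigp1 no longer passed. At day 6 D6-deficient replicate 3 stood above the other arrays of its group for the immunity-related GTPases, with Iigp1 at 10.80 beside 9.18 and 9.28, and Igtp at 8.64 beside 7.55 and 7.55. Without that array 9 of 13 probe sets were lower at day 6 than at day 0, and without D6-deficient day 0 replicate 3 or day 6 replicate 2 the count was 0.

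**Figure D3:**
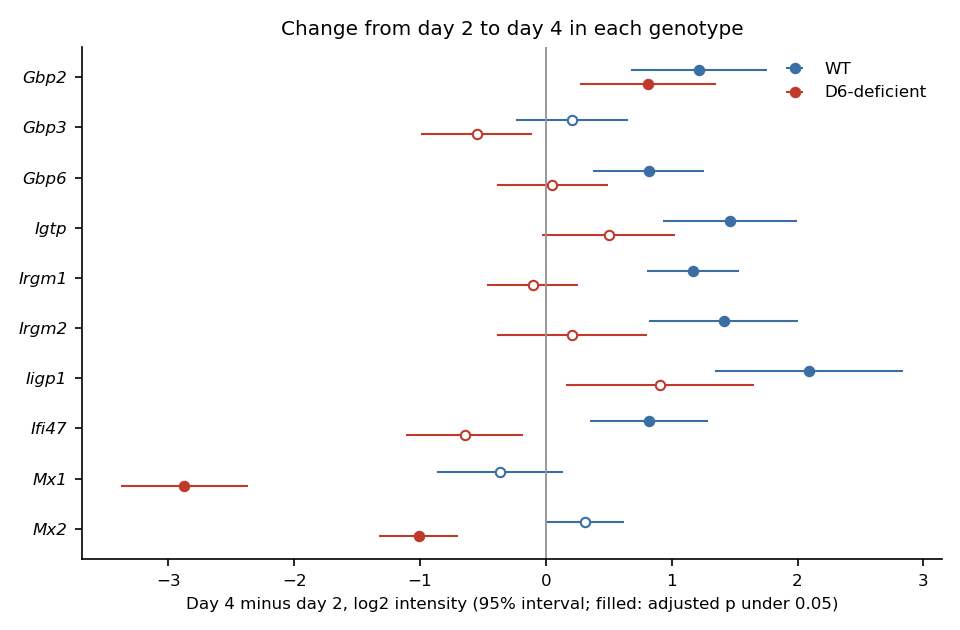
Change from day 2 to day 4 in log2 intensity (horizontal axis) for the quoted probe set of each gene, WT in blue and D6-deficient in red, with 95% confidence intervals from limma and filled points for an adjusted p under 0.05. Between these days Mx1 fell by 2.87 in D6-deficient skin, while Iigp1 rose by 2.09 and Gbp2 by 1.22 in WT skin.

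Between neighbouring days the family moved at different times in the genotypes. From day 1 to day 2 all 13 probe sets rose in D6-deficient skin, against 5.18% of all probe sets, with a median of 1.21, and 0 of 13 rose in WT skin, against 0.633%, where limma gave none at an unadjusted p under 0.05. Without D6-deficient day 1 replicate 1 the D6-deficient count was 7. From day 2 to day 4 the WT probe sets rose in 9 of 13 cases, against 7.16%, led by Iigp1 (2.09, SE 0.36, adjusted p = 0.00024). In D6-deficient skin 2 of 13 rose, of Gbp2 and Iigp1, against 7.76%, and 2 of 13 fell, of Mx1 and Mx2, against 8.54%. Both rises were lost in at least 1 of the fits without an array, and without D6-deficient day 2 replicate 2 or 3 or day 4 replicate 3 neither passed. From day 4 to day 6 the count that fell was 10 of 13 in WT skin, against 10% of all probe sets, and 12 of 13 in D6-deficient skin, against 14.5%. Iigp1 fell by 2.15 in WT (SE 0.36, adjusted p = 0.000109) and by 3.00 in D6-deficient skin (SE 0.36, adjusted p = 7.98e-07).

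Ordered by group mean, Iigp1 ran from 9.75 ± 0.91 in D6-deficient skin at day 6 to 12.76 ± 0.06 in D6-deficient skin at day 4, with WT skin at day 4 (12.27 ± 0.28) next to the top. These highest neighbours did not differ by more than their test allowed (0.49, adjusted p = 0.738). For Mx1 the order was D6-deficient day 2 at 8.54 ± 0.47, then WT day 0 at 6.41 ± 0.36 and D6-deficient day 1 at 6.29 ± 0.30, down to WT day 4 at 5.18 ± 0.31. As a description over the 30 arrays, each gene's Pearson correlation with the mean standardised level of the other members ran from 0.48 for Mx1 and 0.70 for Mx2 to 0.97 for Irgm1. These arrays share their groups, so the values describe a common course and carry no test.

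Among the 5 other genes whose course over the 30 arrays was most like the mean standardised course of the family were Zbp1, a sensor of nucleic acids (Pearson r = 0.949), Irf9, the DNA-binding subunit of ISGF3 (0.945), Parp9 (0.943) and Uba7, the activating enzyme of ISG15 (0.934, on a probe set that also carries the symbol Cdh29). At day 2 the genotypes differed by 1.11 for Irf9 (limma, adjusted p = 3.79e-08). Irf9 was picked for its likeness to the family on these same arrays, so this difference is not independent of that choice.

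Other members of the same GTPase families followed the quoted genes in part. Of 8 such probe sets, 5 were higher at day 2 when D6 was lacking and 0 lower, with a median of 1.56. For this and the lists that follow, 2.46% of all tested probe sets were higher and 1.99% lower in that comparison, and their median was −0.02. The T-cell-specific GTPases (Tgtp1 and Tgtp2 on a shared probe set, and so not separable) were higher by 1.68 (SE 0.37, adjusted p = 0.00693) and Mpa2l, now named Gbp6, by 1.66 (SE 0.42, adjusted p = 0.0186). Gbp1 had the largest value at 3.39 with a wide error (SE 0.98, adjusted p = 0.0481), and without WT day 2 replicate 1 it was 2.10 (adjusted p = 0.293). Its call was lost without any 1 of 5 of the 6 arrays of that day, and also with no filter, median centring, the hybridization control sets as a covariate or only the arrays of the contrast, with adjusted p from 0.0505 to 0.0781 in these last 4 fits. Without WT day 2 replicate 2 the calls of Tgtp1 and Tgtp2 (1.26, adjusted p = 0.0654) and Mpa2l (1.32, adjusted p = 0.122) were lost, and that of Mpa2l was lost without any 1 of 4 further arrays. Gvin1, a very large inducible GTPase, had a difference of 0.38 (adjusted p = 0.468). From day 2 to day 4 in D6-deficient skin Gbp8 fell by 1.36 (SE 0.27, adjusted p = 0.00106), as did Mx1 and Mx2, while Mpa2l changed by 0.76 (adjusted p = 0.246).

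Type I interferon target genes, such as the Ifit and Oas families, were higher at day 2 in D6-deficient skin for 25 of 28 probe sets, with a median of 2.09. The study singled out several of these genes, among them Ifit1 and Oas genes, on these same arrays for their difference at day 2. The count is therefore not independent evidence of it. The largest differences were those of Ifi44 at 4.31 (SE 0.51, adjusted p = 6.05e-06), Ifit1, which binds viral RNA, at 3.74 (SE 0.36, adjusted p = 1.89e-07) and Isg15, a ubiquitin-like modifier, at 3.70 (SE 0.23, adjusted p = 9.92e-10). The Isg15 probe set also carries the symbol Gm9706. From day 2 to day 4 in D6-deficient skin 23 of these 28 fell and 0 rose, with a median of −1.01, against 8.54% and 7.76% of all probe sets and a median of 0.02. In WT skin at day 4 against day 0, 9 were higher and 2 lower, against 17.3% and 21.8% of all probe sets. Targets known mainly for interferon-γ were higher at day 2 for 5 of 29 probe sets, with a median of 0.15, against the 2.46% and −0.02 over all probe sets. They included Cxcl9, a chemokine for activated T cells (2.30, SE 0.40, adjusted p = 0.000826), Ubd (1.86, SE 0.26, adjusted p = 6.33e-05) and Cd274, which encodes PD-L1 (0.89, SE 0.20, adjusted p = 0.00707), whereas the probe sets of the MHC class II genes H2-Aa, H2-Ab1, H2-Eb1 and Cd74 did not pass. The study itself counts Cxcl9 with the type I interferon pathway and set its result on these arrays beside PCR. Its value here is therefore not independent evidence either. In WT skin at day 4 against day 0, 11 of the 29 were higher and 14 lower, against the same 17.3% and 21.8%.

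Of 32 probe sets for interferon receptors and signalling, 13 were higher at day 2 in D6-deficient skin and 0 lower, with a median of 0.40. Irf7, which drives interferon-α genes, differed by 3.24 (SE 0.24, adjusted p = 3.45e-09), Usp18, a feedback inhibitor at the type I receptor, by 2.90 (SE 0.28, adjusted p = 2.22e-07) and Stat2, a subunit of ISGF3, by 1.65 (SE 0.19, adjusted p = 4.01e-06). Irf7, Usp18 and Stat2 too were singled out by the study on these arrays for their difference at day 2, so their values are not independent evidence of it. The interferon genes themselves were dim. The probe sets of Ifng, Ifna4 and Ifna11 were below the filter, and of the 8 that were tested 0 were higher and 0 lower at day 2 between the genotypes, with differences from −0.42 to 0.27 and Ifnb1 at 0.20 (adjusted p = 0.635).

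**Figure D4:**
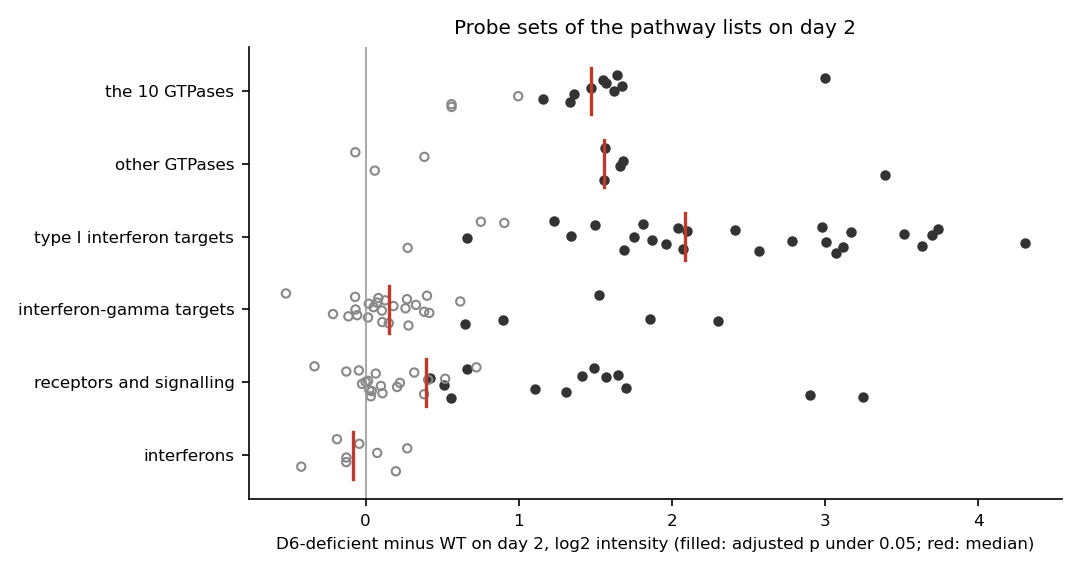
Difference between D6-deficient and WT skin at day 2 in log2 intensity (horizontal axis) for every tested probe set of the 10 GTPases and of 5 pathway lists. Filled points have an adjusted p under 0.05 by limma and red bars are list medians, from −0.08 for the interferons to 1.47 for the 10 GTPases and 2.09 for type I interferon targets.

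Markers of leukocytes moved with some of the same groups, and their counts at day 2 are likewise to be read against 2.46% of all probe sets higher and 1.99% lower. The summed linear intensity of 9 macrophage genes ran from 26401 to 29197 in D6-deficient skin at day 2, above the WT range of 19603 to 21435, and 5 of 15 macrophage probe sets were higher there and 0 lower, among them Fcgr1 (2.14, SE 0.24, adjusted p = 2.6e-06), which is itself induced by interferon. At day 0 the order was the opposite, with sums of 17022 to 20317 in D6-deficient and 22714 to 25363 in WT skin. The WT sums at day 4, 25262 to 27603, overlapped with those of D6-deficient skin at day 2. Of 6 neutrophil probe sets 4 were higher, with Ngp at 4.82 (SE 0.80, adjusted p = 0.000485), while the summed levels of 49126 to 54579 in D6-deficient and 38148 to 51436 in WT skin overlapped. The neutrophil sums at day 0 were uneven, 2612 to 15021 in D6-deficient and 726 to 4528 in WT skin. For the change from day 0 to day 2, 3 of the 6 were higher in D6-deficient skin, against 2.78% of all probe sets, and 0 lower, with differences from −2.31 to 4.63. Of 7 dendritic cell probe sets 0 were higher and 2 lower, those of Cd209a (−4.52, SE 0.85, adjusted p = 0.00157) and the Langerhans cell marker Cd207 (−2.38, SE 0.39, adjusted p = 0.000414), and the summed level was 557 to 669 beside 1322 to 1713 in WT skin. At day 0 that sum was 953 to 1227 in D6-deficient and 1174 to 1628 in WT skin. The median difference of the 7 dendritic probe sets at day 2 was 0.11 and the highest 0.63. For the change from day 0 to day 2 between the genotypes, 1 of the 7 was higher, against 2.78% of all probe sets, and 1 lower. The share of all probe sets lower in that comparison is not given here. These differences ran from −2.75 to 1.21 with a median of −0.42. All were smaller in size than the −4.52 of Cd209a at day 2, so part of that difference was already present at day 0. T-cell markers, of which 2 of 25 probe sets were higher, ran from 3681 to 4570 beside 4412 to 4782, and natural killer cell markers, of which 0 of 9 were, from 997 to 1598 beside 788 to 1203.

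At day 4, when Gbp2, Iigp1 and Igtp were highest in both genotypes, the summed natural killer cell markers were also at their highest, 1678 to 1927 in WT and 1738 to 2561 in D6-deficient skin, against 602 to 1019 and 664 to 744 at day 0. At day 4 against day 0, 5 of 9 natural killer cell probe sets were higher in WT skin, against 17.3% of all probe sets, and 5 of 9 in D6-deficient skin, against 18.8%. The median rises were 0.64 and 0.56 and the largest 3.43 and 3.51, so the sums lean on the genes that rose most. From day 2 to day 4 in D6-deficient skin 1 of 9 rose, against 7.76% of all probe sets, with a median of 0.25 and a largest rise of 2.02. The summed neutrophil markers also had their highest medians at day 4, 52325 in WT and 56019 in D6-deficient skin, beside 45567 and 51523 at day 2. The summed keratinocyte markers were at their lowest at that day, 20936 to 30183 in WT and 12532 to 18915 in D6-deficient skin, against 38407 to 40629 and 54510 to 56663 at day 0. No listed macrophage, neutrophil, dendritic, T or natural killer cell gene on the array was below the filter with all its probe sets. The part of these cells in the levels of the GTPases was not tested.

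**Figure D5:**
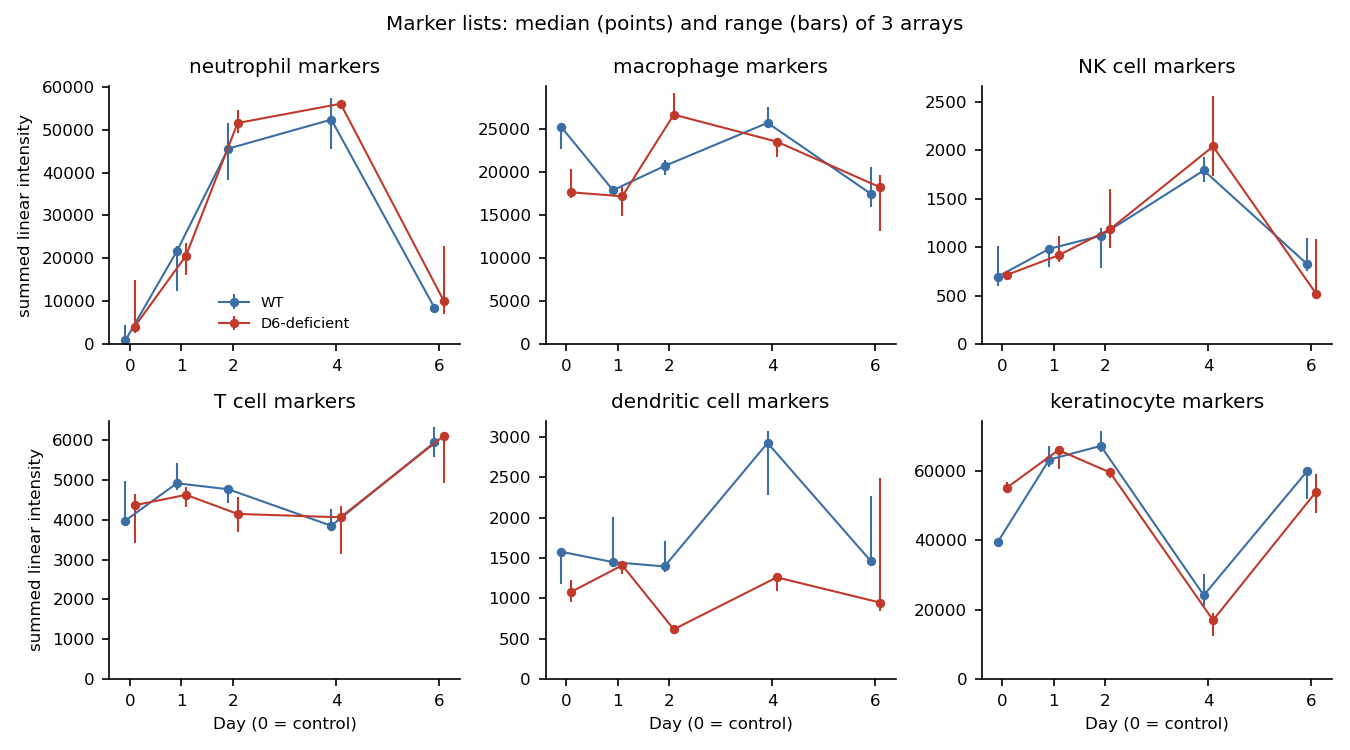
Summed linear intensity of the genes of each marker list (vertical axes, from 0) against the day after the last TPA application, WT in blue and D6-deficient in red. Points are medians and bars the range of 3 arrays. Macrophage markers in D6-deficient skin at day 2 (26401 to 29197) lie above WT skin of the same day, and natural killer cell and neutrophil markers have their highest medians at day 4 in both genotypes.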

How the data were processed

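Total RNA of 30 back skin samples was hybridized to Affymetrix mouse arrays. The authors used RMA, which corrects the background, normalizes by quantiles and summarizes probes, and deposited linear intensities. The baseline transformation to controls that the methods describe is not in these values. Their log2 was taken here without further scaling. Another deposited text holds only a sample sheet and was not used. Control probe sets (64) and the 20% of probe sets with the lowest mean (9008) were left out, and 36029 of 45037 were tested. The arrays' median log2 levels ran from 5.64 to 5.80, and the number of arrays limits the precision. With limma (lmFit and eBayes), 1 model held all 30 arrays and a mean for each group, and probe sets were called at a Benjamini-Hochberg adjusted p under 0.05. On simulated arrays of this design with a log2 change of 1.5, 193 of 200 changed probe sets were recovered for the genotypes at day 2 and 177 of 200 for the change from day 0. The changed probe sets were drawn at random from all those tested, with normal noise at the spread of each. These rates therefore do not tell how often a change would be found in members with a wider spread. The members, the gene lists and the comparisons were chosen with earlier results of these data known. All member probe sets are reported, and other genes are the 3 largest differences at day 2 of a list, the 5 genes most correlated with the family and genes needed to describe a list. Of the 5 correlated genes, 1 is not reported here. Of the marker lists not described further, the endothelial, keratinocyte, fibroblast and adipocyte lists had 0 probe sets called between the genotypes at day 2, and the muscle list had 1 lower. Replicate numbers did not pair the samples. Alternatives were no filter, median centring, a replicate block, the hybridization control sets as covariate, the arrays of a contrast only, a 3-fold threshold, the methods' t-test, averaged probe sets and leaving out each array. R 4.3.3, limma 3.58.1, Python 3.11.15 and matplotlib 3.10.9 were used. Promoters and positions are from RefSeq (GRCm38.p6).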

Additional observations from a re-analysis of the deposited data

Results flagged for a closer look

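The change from day 0 to day 2 differed between the genotypes by limma's interaction term for 5 genes of the family. The D6-deficient change exceeded the WT change by 3.53 for Mx1 (adjusted p = 1.22e-06), 1.82 for Ifi47 (adjusted p = 0.00112), 1.72 for Irgm1 (adjusted p = 0.000182), 1.58 for Mx2 (adjusted p = 7.45e-05) and 1.31 for Gbp3 (adjusted p = 0.01) on the log2 scale. For Mx1 part of the value comes from the fall in WT skin, −0.87 from day 0 to day 2, beside the rise of 2.66 in D6-deficient skin. No interaction passed for the family at day 1, 4 or 6.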

How the results depend on the processing

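The counts of member probe sets are those at an adjusted p under 0.05 unless said otherwise. With a 3-fold threshold, 4 remained higher between the genotypes at day 2 (10 without it), 3 for the change from day 0 (5 without it), 2 in WT skin at day 4, 2 in D6-deficient skin at day 2 and 2 at day 4, and 0 lower against day 0 in either genotype. Between neighbouring days that threshold left 1 rise from day 1 to day 2 in D6-deficient skin, 2 rises from day 2 to day 4 in WT skin, 0 rises and 1 fall from day 2 to day 4 in D6-deficient skin, and 3 falls from day 4 to day 6 in WT skin. The methods' t-test at an unadjusted p with the same threshold gave the same counts for these comparisons, the change from day 0 apart. After Benjamini-Hochberg adjustment that t-test gave 0 higher between the genotypes at day 2, 3 higher in WT skin at day 4, 0 lower in WT skin at days 1, 2 and 6, 0 lower on day 6 without D6, 5 rises from day 1 to day 2 in D6-deficient skin, 0 rises (day 2 to 4) and 2 falls (day 4 to 6) in WT skin, and in D6-deficient skin 1 rise and 1 fall from day 2 to day 4 and 1 fall from day 4 to day 6. With only the arrays of a contrast, 2 were lower in WT skin at day 1, 1 was higher in D6-deficient skin at day 1, 0 were lower there at day 6, and 4 rose and 4 fell from day 2 to day 4.

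Replicate numbers did not pair the samples, since 3 of 15 correlations of the deviations of same-numbered arrays were over 0.1 and their median was −0.06. With the replicate number as a block the paired fit gave 10 for the change from day 0 to day 2 and 5 lower against day 0 in D6-deficient skin on day 6, and moved no other count by more than 1.5 times. Leaving out 1 array at a time gave 9 to 10 between the genotypes at day 2, 5 to 8 for the change from day 0, 8 to 9 higher in WT skin at day 4, 7 to 10 in D6-deficient skin at day 2, 8 to 11 at day 4, 0 to 9 of those lower on day 6 without D6, 0 to 1 lower in WT skin at day 2 and 0 to 2 at day 6, 7 to 12 rises from day 1 to day 2 and 0 to 1 rises from day 2 to day 4 in D6-deficient skin. Median centring moved the median difference of all tested probe sets by up to 0.11. Differences near 0 turned their sign. In WT skin at day 4 against day 0, Gbp3 moved from −0.02 to 0.066 and Mx2 from −0.03 to 0.058 with median centring. With 1 array left out the same differences ran from −0.19 to 0.093 for Gbp3 and from −0.12 to 0.044 for Mx2, and the change of Gbp6 from day 2 to day 4 in D6-deficient skin (0.05) ran from −0.100 to 0.18. The cause was not tested for any of these shifts. No filter on dim probe sets, median centring, the hybridization control sets as a covariate and averaged probe sets moved no count of members by more than 1.5 times.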
